A study of Homo sapiens with 8 samples.

Results

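The genes described here are MYC, CCND1 and CCNG2, which code for the transcription factor MYC and the cyclins D1 and G2. They were taken by gene name from a deposited expression table of 1950 genes, and the table held all 3. K562 is an established human cell line from a chronic myeloid leukemia, which carries the BCR-ABL fusion kinase and can be driven towards erythroid-like or megakaryocyte-like cells. In 4 RNA-seq libraries the K562 cells had received an extract of Caulis Polygoni Multiflori, a plant stem used as a medicine, at 80 µg/mL for 3 days. The other 4 libraries came from K562 cells without the extract, called control. Both groups share the cell line and the medium. The growth time of the control cells was not stated, so that time and the extract cannot be told apart. The question named by the series title is whether the extract favours megakaryocytes and platelets by way of the MEK/ERK and PI3K/AKT pathways.

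MYC pairs with the protein MAX on E-box sequences in DNA and drives genes for ribosomes, nucleotide synthesis and cell growth. In blood cells it normally declines as cells mature. Cyclin D1 switches on the kinases CDK4 and CDK6, which phosphorylate the RB protein and let cells enter S phase. Its gene answers to MEK/ERK and other growth signals, although cyclins D2 and D3 are the better known D cyclins of blood cells. Cyclin G2 is an unusual cyclin that binds protein phosphatase 2A and is linked to arrest rather than to progress through the cell cycle. FOXO factors, which AKT keeps out of the nucleus, switch on its gene.

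The table gives a normalized expression value per gene and library, in a unit that the labels and the header leave unstated. The values of different genes are therefore not read as transcript amounts. A gene is called high, low or similar in value only by the printed values. The authors listed only genes with a p-value of at most 0.0499 and an absolute log2 fold change of at least 0.5851 in their own comparison of these same libraries, per the authors' deposited table. The 3 genes were chosen with their difference known. So the difference between extract and control is given for them as a description, without a test. In the authors' deposited table the log2 fold changes were 1.06 for MYC, −0.65 for CCND1 and −0.78 for CCNG2. Its adjusted p-values were 0 as printed for MYC, 3.31e-61 for CCND1 and 0.000213 for CCNG2. Per the authors' deposited table, 45.9% of all listed genes passed at an adjusted p of 0.05, with 18.3% of the list higher and 27.7% lower with the extract. The labels do not tell whether replicate libraries stem from separate cultures, and their spread may be technical. In bulk RNA, fewer cells that make a transcript and less transcript per cell cannot be told apart. Tested genes, below, are the 750 of 1950 that reached a value of 1 or more in 4 or more libraries, and MYC, CCND1 and CCNG2 are among them. Listed values summed to between 13114 and 13434 in extract libraries and between 13629 and 14134 in control libraries. These sums are no measure of depth, which is unknown.

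In RefSeq's table of promoters on GRCh38.p14, 1 of the 3 genes was matched, CCNG2, and MYC and CCND1 were not. The 250 bases before the RefSeq start of CCNG2 are shown with the letters that MYC and MAX recognize, the E-box, and those of other factors named here. They lie at chr4:77156957-77157206 on the plus strand, written 5′ to 3′, with motif matches in capitals.
CCNG2: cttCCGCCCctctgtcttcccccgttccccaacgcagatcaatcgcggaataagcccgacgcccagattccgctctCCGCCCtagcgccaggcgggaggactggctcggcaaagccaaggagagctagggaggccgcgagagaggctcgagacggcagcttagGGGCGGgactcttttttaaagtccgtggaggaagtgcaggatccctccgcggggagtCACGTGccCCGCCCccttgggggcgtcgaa
The E-box CACGTG was found once, starting 30 bases before the RefSeq start of the gene. It was present in 6.34% of 35116 promoters of the same length. The GC box GGGCGG, searched on both strands as all motifs were, was found 4 times and was present in 42.6% of promoters. Its matches started 247, 174, 87 and 22 bases before the RefSeq start. No match overlapped another. The start of CCNG2 in the GENCODE 29 annotation, 77157151, lies within this window. The E-box and the GC box at 22 bases lie past it, inside the gene by that annotation. The FOXO motif GTAAACA, the TCF motif ATCAAAG, the STAT motif TTCNNNGAA, the cyclic AMP response element TGACGTCA, the E2F motif TTTCGCG and the CCAAT box, searched by those letters, were not in this window. These were present in 2.98%, 2.26%, 6.57%, 1.65%, 1.10% and 32.0% of promoters, in that order. A match is a description of letters and not evidence of binding.

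MYC was higher in K562 cells given the extract, with all 4 extract libraries far above all 4 control libraries. The gene (ENSG00000136997) lies on chromosome 8, from 127735434 to 127741434 on the plus strand of GRCh38 in GENCODE 29, and codes for protein. Its expression values were 301.21, 286.28, 290.91 and 300.5 in extract libraries 1 to 4, against 140.64, 144.28, 138.42 and 142.29 in control libraries 2 to 5. The lowest extract value was 142.0 above the highest control value, and both groups were tight. The means were 295 ± 7.33 with the extract and 141 ± 2.49 in control cells (SD, n = 4 each), a ratio of 2.08. The SD was 2.49% of the mean in the extract group and 1.76% in the control group. Few other tested genes had values of this size. Among the 9 with a mean value within 2-fold of that of MYC, the median SD was 3.24% of the mean with the extract and 3.51% in controls. No gene of these 9 had a larger absolute log2 ratio (0 of 9), and 3 of them were higher with the extract. Among all 254 tested genes with a higher mean with the extract, MYC ranked 59 by the size of its log2 ratio.

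CCND1 was lower with the extract, again with no overlap between the groups. The gene (ENSG00000110092) lies on chromosome 11, from 69641087 to 69654474 on the plus strand. Its expression values were 18.05, 17.03, 16.13 and 17.53 in extract libraries 1 to 4, against 28.76, 27.53, 28.81 and 27.94 in control libraries 2 to 5. Every extract library lay below every control library, with 9.48 between the nearest pair. The means were 17.2 ± 0.817 with the extract and 28.3 ± 0.629 in control cells (SD, n = 4 each), so the control mean was 1.64 times the extract mean. On the log2 scale the ratio of extract over control was −0.72. CCND1 was an ordinary case by size. Among the 496 tested genes with a lower mean with the extract, CCND1 ranked 332 by the size of its log2 ratio.

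CCNG2 was also lower on average with the extract, but its groups overlapped. The gene (ENSG00000138764) lies on chromosome 4, from 77157151 to 77433388 on the plus strand. Its expression values were 1.59, 0.89, 1.08 and 1.47 in extract libraries 1 to 4, against 1.99, 1.9, 1.49 and 2.07 in control libraries 2 to 5. Of the 16 pairs of 1 extract and 1 control library, 15 had the lower value in the extract library. The exception was extract 1 at 1.59 against control 4 at 1.49. The means were 1.26 ± 0.328 with the extract and 1.86 ± 0.258 in control cells (SD, n = 4 each). The control mean was thus 1.48 times the extract mean, under the 1.5-fold change that the authors' deposited table required, because the fold change there is not this ratio of means. The log2 ratio of means was −0.57, against −0.78 in the authors' deposited table. By size CCNG2 ranked 444 among the 496 tested genes with a lower mean with the extract, and 314 of 362 genes with a mean value within 2-fold of its own had a larger absolute log2 ratio. For MYC the log2 ratio of means and the deposited value were both 1.06, and for CCND1 they were −0.72 and −0.65.

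**Figure D1:**
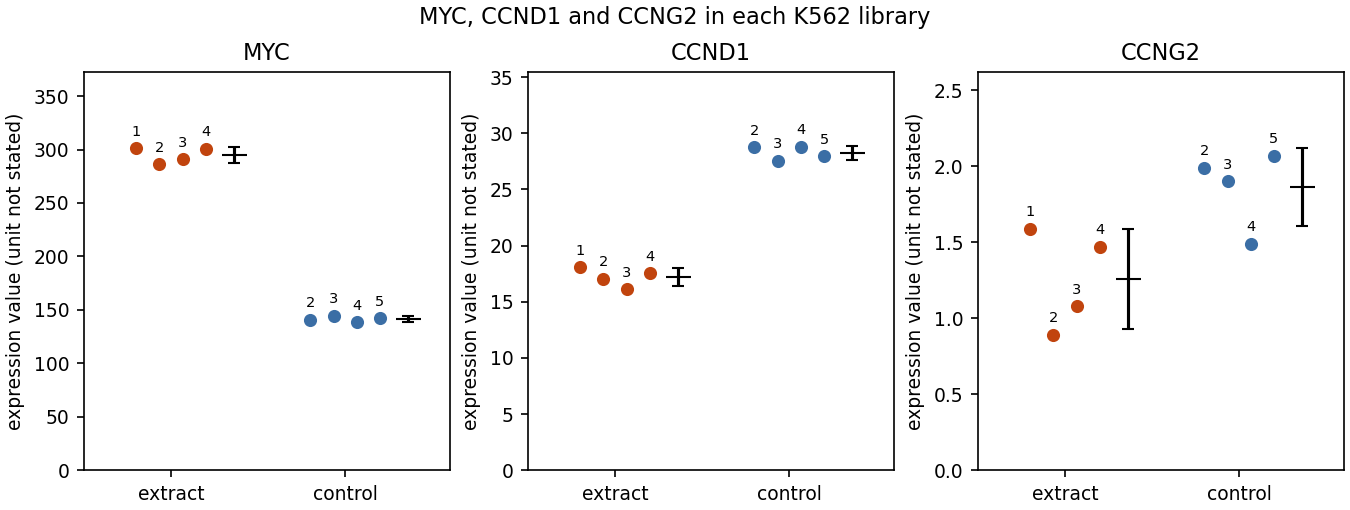
Expression value (unit not stated) of MYC, CCND1 and CCNG2 in each of 4 extract and 4 control K562 libraries. Points are libraries with their label numbers, and the bar beside each group is the mean ± SD. MYC was higher in all extract libraries, CCND1 lower in all of them, and the CCNG2 groups overlap at extract 1 (1.59) and control 4 (1.49).

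The spread between libraries differed among the 3 genes. The SD of CCNG2 was 26.1% of its mean with the extract and 13.8% in controls, against 4.76% and 2.23% for CCND1. A spread of that size was usual among tested genes of similar value. For 362 tested genes with a mean value within 2-fold of that of CCNG2, the median SD was 25.3% of the mean with the extract and 23.7% in controls. For the 93 such genes around CCND1 the medians were 8.20% and 7.79%. Of these 93 genes 19 had a smaller relative SD than CCND1 in extract libraries and 1 in control libraries. Groups did not overlap in 67.7% of tested genes, 21.9% with the extract higher and 45.9% with it lower. The 2 of 3 seen here says nothing about these genes in particular, since the table was chosen on the same libraries.

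The ratio of 2 genes within a library does not depend on how libraries were scaled to one another by a constant. The size of such a ratio has no meaning of its own here, and its difference between groups does. MYC over CCND1 was 16.7, 16.8, 18.04 and 17.1 in extract libraries 1 to 4, against 4.89, 5.24, 4.80 and 5.09 in control libraries 2 to 5. The groups were far apart, as the opposite directions of the genes require. Its mean was 17.2 ± 0.609 with the extract and 5.01 ± 0.197 in controls (SD, n = 4 each), which is 3.43 times higher. MYC over CCNG2 ranged from 189 to 322 in extract libraries and from 68.7 to 92.9 in control libraries. The mean of that ratio was 3.20 times higher with the extract.

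The ratio of the 2 cyclins did not separate the groups. CCND1 over CCNG2 was 11.4, 19.1, 14.9 and 11.9 in extract libraries 1 to 4, against 14.5, 14.5, 19.3 and 13.5 in control libraries 2 to 5. The means were 14.3 ± 3.56 with the extract and 15.4 ± 2.63 in controls (SD, n = 4 each). The spread within each group was larger than the distance between the means, so a different relative fall of the 2 cyclins was not detectable. High values stood in extract 2 and control 4, which were the libraries with the lowest CCNG2 of their groups.

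**Figure D2:**
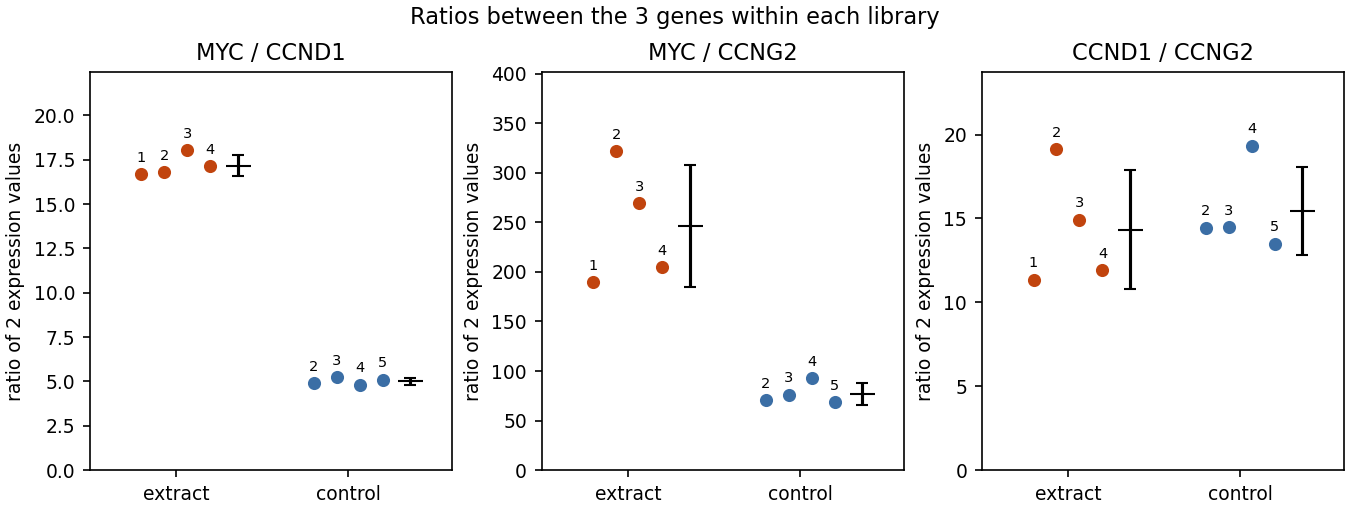
Ratio of the expression values of 2 genes within each library, for MYC over CCND1, MYC over CCNG2 and CCND1 over CCNG2, in 4 extract and 4 control libraries. Points are libraries with their label numbers, and bars are the mean ± SD. Both ratios with MYC were higher in every extract library, and the ratio of the cyclins overlaps between groups.

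Scaling mattered for the size of the differences, though not for their direction. The median log2(value + 1) over the tested genes of a library differed by −0.27 between extract and control. Relative to that shift, with libraries centred on it, the log2 ratio of MYC was 1.33, that of CCND1 was −0.45 and that of CCNG2 was −0.30. After quantile normalization they were 1.06, −0.22 and −0.31. Both scalings rest on listed genes alone, which were selected for a difference and fell more often than they rose, so neither shows which size is nearer the truth. Leaving out any 1 library gave log2 ratios between 1.05 and 1.07 for MYC, between −0.74 and −0.69 for CCND1 and between −0.70 and −0.43 for CCNG2. The CCNG2 difference was smallest without extract 2, its lowest library, and largest without extract 1. With a pseudocount of 1 the CCNG2 difference was −0.35, since a pseudocount shrinks the change of low values.

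**Figure D3:**
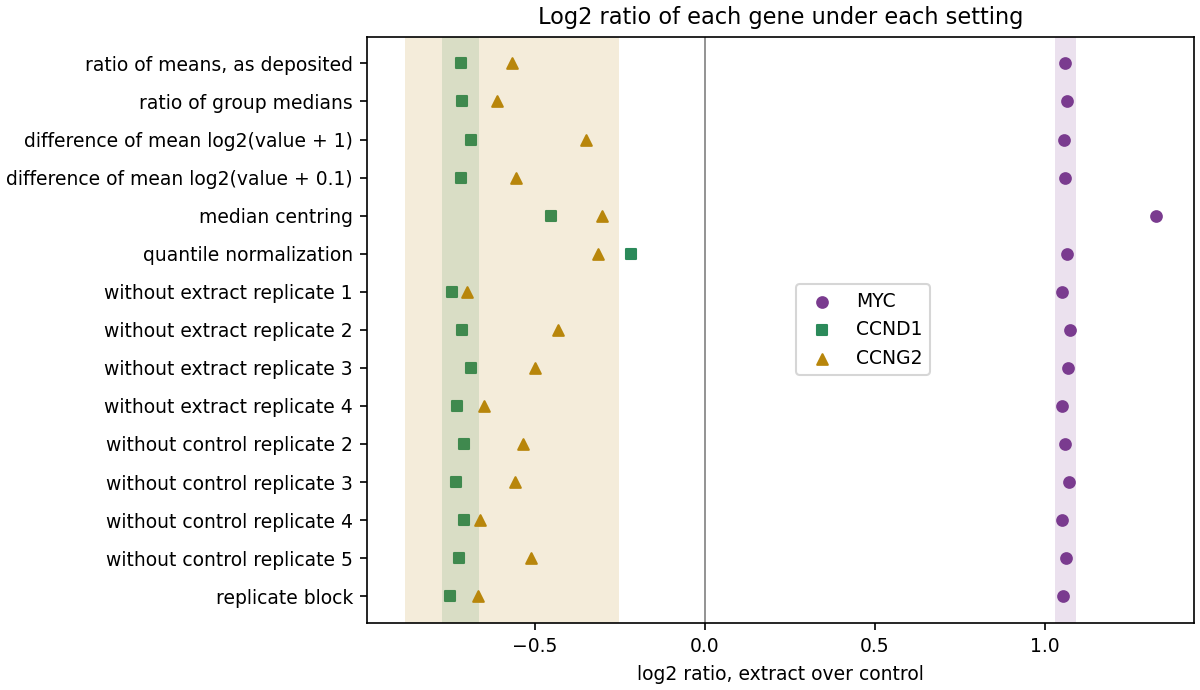
Log2 ratio of extract over control for MYC, CCND1 and CCNG2 (horizontal axis) under the deposited values and 14 other settings (vertical axis). Points are single values, and each shaded band is 1 SD between libraries on the log2 scale around the value as deposited. MYC stays above 0 and both cyclins below 0 throughout, with CCND1 nearest to 0 at −0.22 after quantile normalization.

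The genes with the most similar profiles over the 8 libraries were named by a fixed measure. It is the root mean square difference of log2(value + 1) after each gene's own mean is removed, over named genes that reached 1 in every library. For MYC the closest of 402 candidates were HSPA1B at 0.04 log2 units, CISH at 0.08 and PIM1 at 0.09. HSPA1B codes for an inducible heat shock protein, CISH for a feedback inhibitor of STAT5 signaling, and PIM1 for a kinase that STAT5 induces. HSPA1B shares nearly all of its sequence with HSPA1A, and reads of both genes may be mixed. It averaged 193 ± 3.82 with the extract and 95.03 ± 3.34 in controls (SD, n = 4 each). Since the libraries form only 2 groups, likeness over them is mostly a like difference between the groups.

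For CCND1 the closest were SELPLG at 0.03, METTL7A and MLLT11, both at 0.05. SELPLG, which codes for the P-selectin ligand of white blood cells, averaged 4.14 ± 0.253 with the extract and 7.44 ± 0.307 in controls (SD, n = 4 each). METTL7A codes for a methyltransferase-like membrane protein, and MLLT11 was first found as a fusion partner of the MLL gene in leukemia. For CCNG2 the closest were the aldo-keto reductase gene AKR1E2 at 0.09, the noncoding RNA LINC01138 at 0.12 and the nuclear receptor gene NR4A2 at 0.13. AKR1E2 averaged 1.76 ± 0.353 with the extract and 2.56 ± 0.475 in controls (SD, n = 4 each), and like CCNG2 it was lowest in control 4 among the controls.

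The nearest listed gene to CCND1 on its chromosome was lower with the extract too. MYEOV, named for its overexpression in myeloma, lies 273361 bases from CCND1, from 69294138 to 69367726 on the same strand of chromosome 11. Its expression values were 25.8, 25.95, 25.22 and 25.89 in extract libraries 1 to 4, against 52.01, 51.28, 52.81 and 48.99 in control libraries 2 to 5. All extract libraries were below all control libraries, and the log2 ratio of means was −0.996. A second listed locus within 1000000 bases, ENSG00000254721, had values from 0 to 3.54 with the extract and from 0 to 1.25 in controls, and these overlapped. Around MYC the 1 listed gene within that distance was the noncoding RNA PRNCR1, with values of at most 0.07 in any library. Around CCNG2 the nearest listed were FRAS1, an extracellular matrix gene at 624182 bases, and FAM47E at 873371 bases. FRAS1 was listed at 0 in all control libraries and at 1.01, 0.01, 0.01 and 0.01 in extract libraries 1 to 4. FAM47E averaged 2.90 ± 0.664 with the extract and 1.56 ± 0.404 in controls (SD, n = 4 each), the opposite direction to CCNG2.

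The annotation around the 3 genes bears on how reads may have been assigned. No other gene of GENCODE 29 overlaps MYC (0 overlaps). The LTO1 gene, on the opposite strand, overlaps exons of CCND1. No source used here tells whether the kit or the counting kept strand, so reads of the 2 genes may not be told apart where they overlap. CCNG2 spans 276238 bases in this annotation, and 4 other genes lie within or across that span, without sharing exonic bases with it.

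Genes that act with or under MYC were hardly in the table. Of 20 network partners and rivals of MYC, among them MAX, MXD1, MXI1 and MNT, 0 were listed. Of 30 genes that MYC is known to activate, among them NCL, NPM1, ODC1 and CAD, 0 were listed. These genes were not analysed here, and a rise of MYC targets along with MYC is not shown. Of 15 genes that MYC is known to repress, 3 were listed and 1 was tested. GADD45B, a stress and growth arrest gene, fell, with 0.65, 0.61, 1.32 and 0.92 in extract libraries 1 to 4, against 1.8, 1.8, 2.15 and 1.37 in control libraries 2 to 5. The groups did not overlap, and its log2(value + 1) change was −0.58 ± 0.146 (SE), with adjusted p = 0.00772 in limma. Here and below a gene rose or fell if limma gave an adjusted p under 0.05 over the 750 tested genes, which 82.8% of them had, 26.8% higher and 56% lower. These genes too were listed for a difference between the same libraries, so a call or its p-value is no independent evidence, and rose or fell only says which genes passed. That was 201 genes higher and 420 lower, and with median centring 228 higher and 241 lower. The call of GADD45B was lost with libraries centred on their median (limma adjusted p = 0.0942). THBS1, the thrombospondin gene, averaged 1.12 ± 0.451 with the extract and 0.57 ± 0.208 in controls and was not tested in limma, and it overlapped between groups. In the authors' deposited table THBS1 was higher, with adjusted p = 8.1e-08. GAS1, likewise not tested, was listed at 0.04, 0, 0 and 0.09 in extract libraries 1 to 4 and at 0 in every control library.

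Apart from CCND1 and CCNG2, the family of cyclins and their binding partners gave 1 listed gene of 30. CABLES2, which codes for an adaptor of cyclin-dependent kinases, rose. Its values were 2.26, 2.04, 1.77 and 2.38 in extract libraries 1 to 4, against 1.23, 1.12, 1.16 and 1.67 in control libraries 2 to 5. Its log2(value + 1) change was 0.44 ± 0.113 (SE), with adjusted p = 0.00802 in limma. The other D cyclins CCND2 and CCND3 and the cyclins A, B and E were not listed and not analysed here. Of 37 cyclin-dependent kinases, their inhibitors and RB and E2F genes, 2 were listed and neither was tested. CDK14 had values of at most 0.57 and CDK18 of at most 0.58 in any library, with overlapping groups. CDK4 and CDK6, the partner kinases of cyclin D1, were not analysed here, and neither were CDKN1A, CDKN1B and RB1.

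The listed FOXO factors and targets, a group that includes CCNG2, did not all move in 1 direction. Without CCNG2, 7 of 23 FOXO factors and targets were listed, 5 lower and 2 higher in the authors' deposited table. Of all 1950 listed genes, 1100 were lower and 850 higher there, so this split says nothing about the group in particular. Of the 7 listed without CCNG2, 3 were tested, 1 rose and 2 fell. TXNIP, which restrains glucose uptake, rose, with means of 162 ± 2.62 with the extract and 102 ± 1.77 in controls (SD, n = 4 each) and adjusted p = 3.60e-07 in limma. PDK4, a kinase that shuts off pyruvate dehydrogenase, fell, with 1.99, 1.64, 2.03 and 1.77 in extract libraries 1 to 4, against 5.16, 4.55, 4.89 and 5.66 in control libraries 2 to 5. Its groups lay well apart, with a log2(value + 1) change of −1.08 ± 0.0949 (SE) and adjusted p = 3.77e-05 in limma. YPEL3, a gene linked to growth arrest, fell, although its groups overlapped, with values of 1.97 to 3.78 with the extract and of 3.74 to 7.40 in controls (limma adjusted p = 0.00696). The median change of the 3 tested genes was −0.85, against −0.50 over all tested genes, which is a description and not a test of the list. Among those not tested, IRS2 averaged 0.653 ± 0.0189 with the extract and 1.13 ± 0.211 in controls, and PIK3IP1 averaged 0.453 ± 0.0538 with the extract and 0.928 ± 0.0377 in controls (SD, n = 4 each). IRS2 is an adaptor of the insulin receptor, and PIK3IP1 an inhibitor of PI3K.

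MYC and CCND1 stand together in lists of genes under beta-catenin and under BCR-ABL and STAT5, where here they went in opposite directions. Without MYC and CCND1, 2 of 20 Wnt and beta-catenin targets were listed and 1 was tested. TCF7L2, which codes for a DNA-binding partner of beta-catenin, rose, with means of 4.74 ± 0.745 with the extract and 2.75 ± 0.281 in controls (SD, n = 4 each) and adjusted p = 0.00216 in limma. Of 18 BCR-ABL and STAT5 targets other than these 2, 5 were listed and tested, 4 rose and 1 fell. The 4 that rose were CISH, PIM1, SOCS1 and SOCS3, with log2(value + 1) changes of 0.92, 0.92, 0.67 and 0.51 and limma adjusted p between 1.00e-07 and 0.00312. ID1, an inhibitor of helix-loop-helix factors, fell with a change of −0.82 (limma adjusted p = 0.000248), a call lost with quantile normalization (adjusted p = 0.0855). The median of the 5 changes was 0.67, against −0.50 over all tested genes. SOCS1 was named after its values were seen. This list was drawn up with the values of several of its genes known, so its counts and its median are a description.

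**Figure D4:**
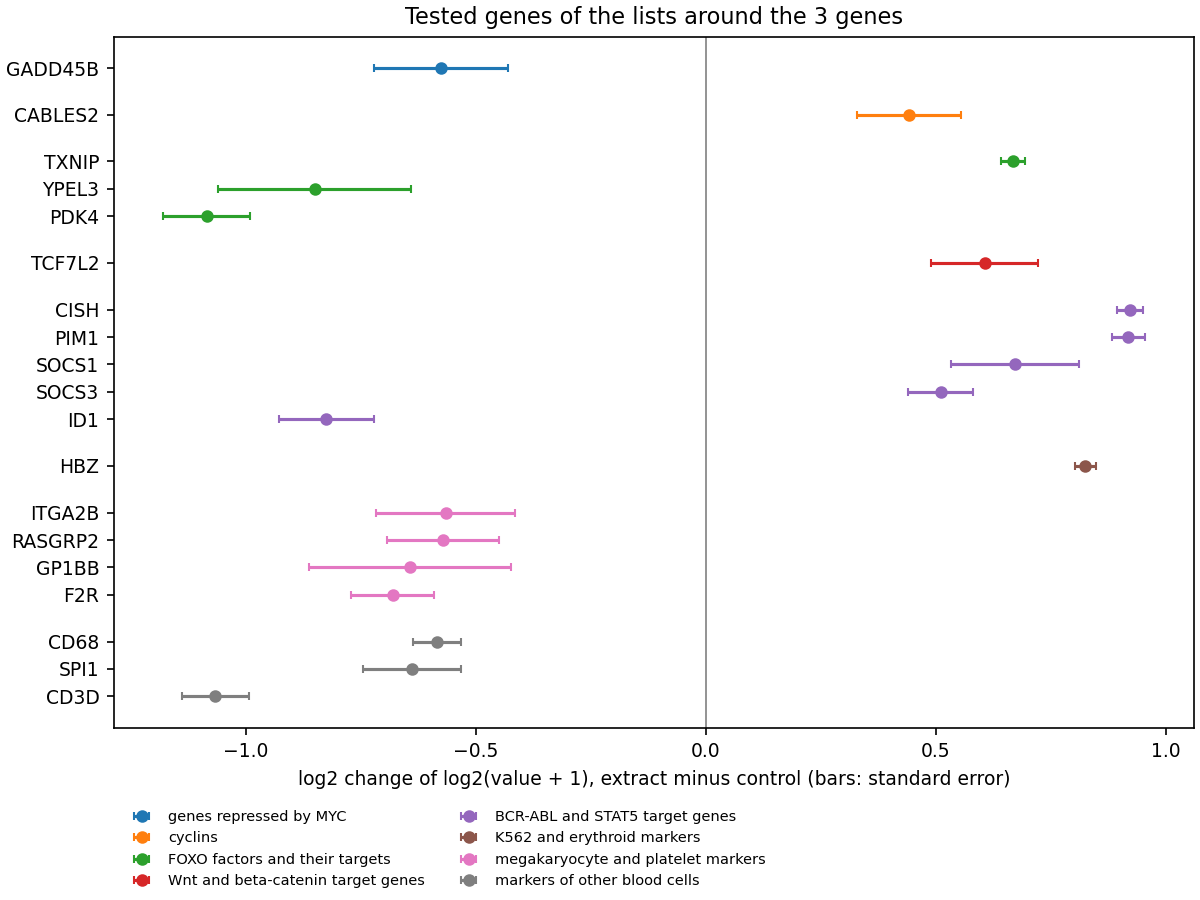
Log2 change of log2(value + 1), extract minus control (horizontal axis), of the tested genes of the lists around MYC, CCND1 and CCNG2, without those 3 genes, 1 gene per row and 1 color per list. Points are limma estimates and bars their standard errors, from 4 extract and 4 control libraries. The BCR-ABL and STAT5 targets CISH, PIM1, SOCS1 and SOCS3 lie above 0, while ID1 and the tested megakaryocyte and other blood cell markers lie below 0.

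Few markers of cell identity were in the table, which holds only genes listed for a difference. Of 18 markers of K562 and erythroid cells 2 were listed, both higher in the authors' deposited table. The embryonic globin gene HBZ rose, with means of 5097 ± 149 with the extract and 2876 ± 47.2 in controls (SD, n = 4 each) and limma adjusted p = 3.99e-08, and showed no difference (log2 0.00) after quantile normalization. Of 20 megakaryocyte and platelet markers 5 were listed, 4 were tested and 4 fell, namely ITGA2B, GP1BB, F2R and RASGRP2, with limma adjusted p of 0.0268 or less. Their listed values, with THBS1, summed to between 55.7 and 70.6 in extract libraries and between 69.9 and 137 in control libraries. Most of these sums was GP1BB, which averaged 49.8 ± 5.63 with the extract and 81.2 ± 27.3 in controls (SD, n = 4 each). The GP1BB groups overlapped, at extract 1 (57.11) and control 5 (52.05). THBS1, the listed marker that was not tested in limma, went the other way. In the authors' deposited table its log2 fold change was 0.94, with adjusted p = 8.1e-08. THBS1 averaged 1.12 ± 0.451 with the extract and 0.57 ± 0.208 in controls (SD, n = 4 each), with overlapping groups. GP1BB no longer passed in limma without extract 3 (adjusted p = 0.0614), control 2 (0.0583) or extract 2 (0.0568). Median centring ended the calls of RASGRP2 (limma adjusted p = 0.0655), ITGA2B (0.105) and GP1BB (0.171), and quantile normalization those of ITGA2B (0.0976) and GP1BB, whose change was then 0.02. Of 19 markers of other blood cells 3 were listed and fell, SPI1, CD68 and CD3D, with limma adjusted p of 0.00108 or less, and none of the 3 was at 0 in any library (0 of 3). Their values summed to between 38.99 and 41.8 with the extract and between 71.9 and 77.1 in controls. The part of these markers in the differences of MYC, CCND1 and CCNG2 was not tested.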

How the data were processed

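RNA-seq, from TRIzol RNA and a TruSeq kit per the labels, was compared between 4 K562 libraries with the extract and 4 without it. The treatment protocol in the labels names the extract for all 8 libraries, and groups were taken from the source name and the treatment entry of each sample. HISAT2, StringTie and the build GRCh38 are named in the submitters' processing notes, without versions or their use. The deposited file held an expression value per gene and library in a unit not stated, with 2 decimals, not counts. Beside these stood the authors' fold change, which is extract divided by control, the log2 of it, and a p-value with its adjusted form. The tool behind them is not given in the sources used here. Its genes were those chosen by that comparison.

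For MYC, CCND1 and CCNG2 the values, means, SD and ratios of means were computed without a test. Other genes were tested in limma 3.58.1 (R 4.3.3) on log2(value + 1), with trended and robust empirical Bayes and Benjamini-Hochberg adjustment, over the 750 genes that reached 1 in 4 or more libraries. These genes were listed for a difference between the same libraries, so the p-values are no independent evidence. A change on that scale understates the change of low genes. The step was also run on simulated data with normal noise and changes in random directions. The listed genes were chosen for a difference and fell more often than they rose. That run therefore does not vouch for the calls here. Coordinates and overlaps came from GENCODE 29 on GRCh38, matched by gene ID for 1866 of 1950 genes, and promoter bases from RefSeq. The table gave no gene name for 633 genes.

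Named were the 3 genes, up to 6 listed genes of each of 11 lists, the 3 closest profiles of each gene and up to 2 nearest listed loci. Correlations between profiles were not printed, because the libraries form 2 groups. SOCS1, named beyond the limit of 6, was chosen after its values were seen, while INSR and FBXO32 stayed beyond it. The result of 1 marker gene was left out and is not reported here. The genes and the lists were chosen with earlier results of these data known.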

Additional observations from a re-analysis of the deposited data

Results flagged for a closer look

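The values of named genes and the ratios between MYC, CCND1 and CCNG2 made up 88 sets of 4 libraries. In 5 sets 1 library stood far from the rest, and chance flags about 1 in 20, or 4.4 of 88. The ratio of CCND1 over CCNG2 was highest in control 4 at 19.3, with the other controls between 13.5 and 14.5. AKR1E2 was lowest in control 4 at 1.85, with the others between 2.79 and 2.81. ID1 was lowest in control 5 at 49.46 (others 64.23 to 66.02). CD3D was highest in extract 2 at 22.87 (others 18.5 to 19). FRAS1 was highest in extract 1 at 1.01, with the other extract libraries at 0.01.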

How the results depend on the processing

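All 14 alternatives kept the direction of the log2 ratio of MYC, CCND1 and CCNG2. Values that moved by more than 1 SD between libraries were MYC with median centring (1.33) and CCND1 with median centring (−0.45) and quantile normalization (−0.22), where centring removes the shift of −0.27 by construction. Leaving out 1 library gave 1.05 to 1.07 for MYC, −0.74 to −0.69 for CCND1 and −0.70 to −0.43 for CCNG2. In limma, 201 of the tested genes were called higher and 420 lower, against 163 to 190 and 369 to 394 with 1 library left out. Without a filter 314 were called higher and 567 lower, as more genes were tested. Median centring gave 228 higher and 241 lower and quantile normalization 222 and 251. The authors' adjusted p gave 207 higher and 401 lower among the tested genes. The cause for quantile normalization was not tested. Of 28 named tested genes outside MYC, CCND1 and CCNG2, 19 kept their call and direction under all 14 alternatives. Under quantile normalization the change of GP1BB was 0.0187 and that of HBZ was 0.00, since HBZ is the highest listed gene of every library. The label numbers 2, 3 and 4 occur in both groups. Deviations of same-numbered libraries correlated at 0.08, 0.08 and 0.15 over the tested genes, and the numbers were not taken as pairs. Control 2 was closest to extract 1 (0.14), while controls 3 and 4 were closest to the extract library of their own number. Whether the numbers mark pairs is not settled by these values. With the number as a replicate block over these 6 libraries, 161 genes were called higher and 354 lower, and the log2 ratios were 1.05, −0.75 and −0.67 for MYC, CCND1 and CCNG2. Depth is unknown, so no counting error is given, and it weighs most on CCNG2, whose values are low.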
